A study of Mus musculus with 6 samples.

Results

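The cytosolic ribosomal protein genes were taken as the rows of the count table whose symbols follow the Rpl or Rps number pattern, together with Rplp0, Rplp1, Rplp2 and Rpsa. Symbols with -ps were left out. The rule found 84 genes among 24421, of which 77 were core genes, 31 of the small (40S) subunit and 46 of the large (60S) subunit. The other 7 were paralogs with symbols ending in l or l1, and they are given apart. The pattern keeps out the S6 kinases (Rps6ka and Rps6kb names), which are not ribosomal proteins.

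RNA was sequenced from isolated pancreatic islets of mice on a C57BL/6J background, giving 3 control libraries and 3 whose labels name a Dhps knockout restricted to β cells (KO-labelled below). The knockout genotype is given as C57.DhpsloxP.MIP1-CreERT, a floxed Dhps allele with a tamoxifen-inducible Cre under the mouse insulin promoter, so islet cells other than β cells keep the gene. The labels do not say whether controls carried Cre or received tamoxifen, they give no age, and they do not spell out the HF prefix shared by all sample names. Whether each replicate was a different animal is not said either, and the p-values below may therefore reflect technical spread alone. Dhps encodes deoxyhypusine synthase, the enzyme that begins the conversion of a lysine of translation factor eIF5A to hypusine.

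A ribosome joins a small subunit, which reads the mRNA, to a large subunit, which forms the peptide bonds, and each subunit is built from ribosomal RNA and one copy of most ribosomal proteins. The mRNAs of these proteins are abundant, usually begin with a run of pyrimidines called a terminal oligopyrimidine (TOP) tract, and are translated under the control of mTOR signalling. β cells need this machinery to make insulin, and eIF5A acts on the same ribosomes during elongation.

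The bases around the start are shown for 10 core genes, to let long and short pyrimidine runs be compared: Rps26, Rplp0 and Rps12, which were among the highest fold changes, and 7 genes described below for their function. Each line gives 30 bases centred on a transcript start annotated by RefSeq (GRCm38.p6, the mm10 assembly), with 15 bases on either side. Capitals mark the longest run of C and T that reaches within 10 bases of the start; where such a run extends past the window, only its part inside is seen.
Rps12, chr10:23787195-23787224, minus strand: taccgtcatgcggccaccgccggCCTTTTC
Rps26, chr10:128626492-128626521, minus strand: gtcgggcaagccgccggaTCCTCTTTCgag
Rpl38, chr11:114668565-114668594, plus strand: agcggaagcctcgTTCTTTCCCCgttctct
Rplp2, chr7:141447636-141447665, plus strand: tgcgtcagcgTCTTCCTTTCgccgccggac
Rps6, chr4:86857353-86857382, minus strand: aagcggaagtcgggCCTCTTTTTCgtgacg
Rplp0, chr5:115559452-115559481, plus strand: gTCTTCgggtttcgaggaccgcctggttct
Rpsa, chr9:120127751-120127780, plus strand: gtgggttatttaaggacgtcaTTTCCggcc
Rpl5, chr5:107900513-107900542, plus strand: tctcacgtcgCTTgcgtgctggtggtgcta
Rpl10, chrX:74270801-74270830, plus strand: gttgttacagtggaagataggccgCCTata
Rpl11, chr4:136053379-136053408, minus strand: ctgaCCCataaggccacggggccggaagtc
Rps12, Rps26, Rpl38, Rplp2 and Rps6 hold runs of 9 to 11 bases, those of Rplp0 and Rpsa were 5 bases long, and those of Rpl5, Rpl10 and Rpl11 were 3. The runs of Rplp0, Rpl5 and Rpl11 lie wholly before the annotated start, outside an mRNA that begins there. A marked run is therefore not by itself a TOP tract. Rpl22 and Rps19, with several annotated starts, had runs of 4 to 5 and 4 to 7 bases. Long runs were also present in genes with low fold changes, with 14 bases in Rpl13a and 13 in Rpl31. RefSeq windows of 300 bases (250 before the start and 50 after) were matched for 57 of the 77 core genes, as 67 windows.

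Pyrimidine runs of at least 8 bases near the start were found in 28 of the 67 core windows (41.8%), against 13.7% of all 32851 windows. The sequence CTTTCC, searched on the sense strand within 20 bases of the start, stood in 14.9% of core windows and 1.95% of all windows; it lies inside a pyrimidine run by its letters. CCGGAAG, the core of binding sites of ETS family factors, was found on either strand in 25 core windows (37.3%), against 8.86% of all. AAGATGGC, part of the site of the factor YY1, was found on either strand in 7 core windows (10.4%), against 2.75% of all. These 7 include overlapping windows at neighbouring starts of Rpl35a, so they are not separate genes. These matches describe letters in the windows, and binding was not measured here.

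Libraries held 21027737 to 23249895 counts. The targeted gene, Dhps, was at 12.03, 13.4 and 12.3 CPM (counts scaled to library size with TMM factors) in the controls and 11.7, 12.7 and 11.4 in the KO-labelled libraries. The groups overlapped, and its log2 fold change was -0.07 ± 0.12 (SE, adjusted p = 0.742 by edgeR's quasi-likelihood test), so directions below refer to labels. The islet identity of the samples was clear from 7 hormone genes, which took 45.1% to 52.1% of counts in the 6 libraries. Markers of acinar, stromal and myeloid cells were higher in the KO-labelled libraries, with values beside the results they touch.

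Ribosomal protein transcripts were higher in the KO-labelled islets in their median, and the size of this difference depended on a single control library. Of the 77 core genes, 73 passed the filter on low counts, and 72 of these had a positive log2 fold change, where 50.9% of all 13736 genes tested did. Their median log2 fold change was 0.33 (interquartile range 0.26 to 0.42), against 0.01 over all genes tested. In edgeR's quasi-likelihood test 2 rose past an adjusted p of 0.05, 0 fell and 71 were not called. That is 2.74% of the core genes, near the background: 6.76% of all genes tested were called, 4.14% higher and 2.63% lower. DESeq2 called 12 core genes higher and 0 lower, and over all 13736 genes it called 990 higher and 712 lower. At an unadjusted p under 0.05, edgeR had 41 core genes higher and 0 lower.

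At that unadjusted level, 56.2% of core genes were higher, against 14.9% of all genes tested. In 43 core genes (58.9%) every KO-labelled library lay above every control, against 16.9% of all genes tested; core genes vary together across libraries, so these are not independent observations.

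The libraries themselves ordered the core genes almost alike. Control 3 was the lowest of the 6 libraries for 72 of the 73 tested core genes, and KO-labelled replicate 3 was the highest for 61. Relative to each gene's own mean over the 6 libraries on the log2 (CPM + 0.5) scale, the median core gene stood at 0.03 in control 1, -0.05 in control 2 and -0.50 in control 3. It stood at 0.11, 0.14 and 0.25 in KO-labelled replicates 1, 2 and 3. The medians of all tested genes stayed within 0.02 of 0 in each library, as the scaling would have them. Controls 1 and 2 were therefore nearer to the KO-labelled libraries than to control 3.

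**Figure D1:**
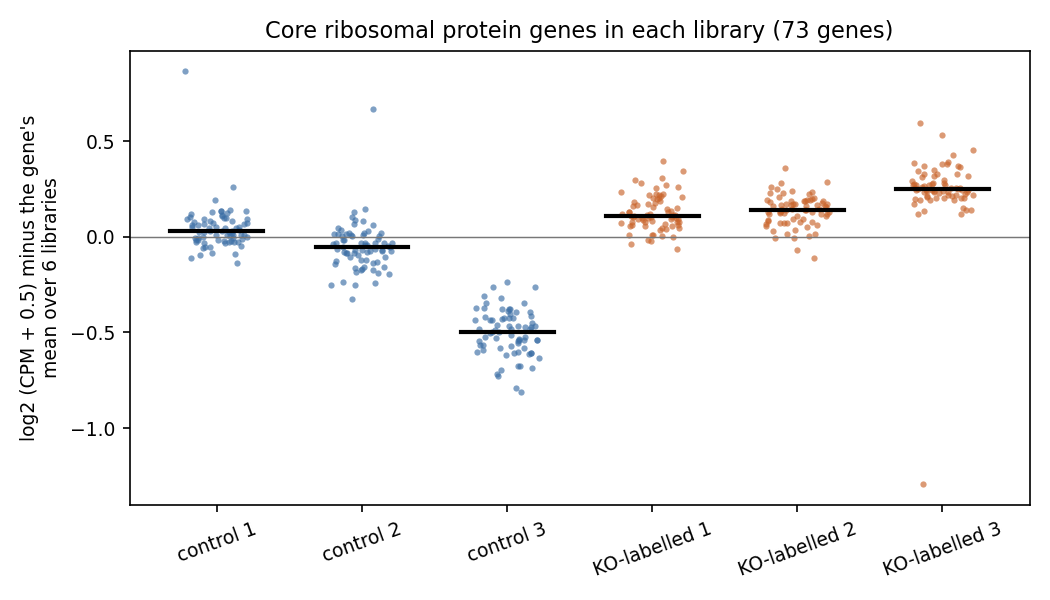
Each point is 1 of 73 tested core ribosomal protein genes in 1 library. The y axis is its log2 (CPM + 0.5) minus that gene's mean over the 6 libraries, and black bars are medians; control 3 has the lowest median, -0.50, and the 3 KO-labelled libraries lie at 0.11 to 0.25, while the lone low point in replicate 3 is Rpl29.

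Leaving out control 3 reduced the core median to 0.18 and the calls to 0 in edgeR, with 10 genes higher and 1 lower at an unadjusted p under 0.05; 72 of 74 tested core genes stayed positive. Every KO-labelled library was above both other controls in 43 of the 73 core genes (58.9%), against 20.2% of all genes tested; with control 3 the lowest library for nearly all core genes, leaving it out could hardly change their count, which therefore says nothing about its influence. The number of calls was also 0 without control 2 or without any one of the 3 KO-labelled replicates, and 8 without control 1.

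As a share of all counts, core ribosomal protein genes took 0.507%, 0.525% and 0.417% in controls 1, 2 and 3, and 0.577%, 0.589% and 0.596% in KO-labelled replicates 1, 2 and 3. The groups did not overlap, and the KO-labelled libraries were close to each other (0.587% ± 0.00930, SD, n = 3) while the controls were spread (0.483% ± 0.0578, SD, n = 3). No p is given for this sum over the members. Outside the hormone and acinar genes, the controls had shares of 1.09%, 1.04% and 0.761%, against 1.19%, 1.19% and 1.248% in the KO-labelled libraries. In bulk tissue, more cells of a kind rich in these transcripts and more of the transcripts per cell cannot be told apart.

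Acinar transcripts were also higher in the KO-labelled libraries. The 21 acinar genes took 1.33%, 1.27% and 0.139% of counts in controls 1, 2 and 3 and 3.38%, 3.74% and 3.54% in the KO-labelled libraries. Control 3 was thus the lowest for both sets of genes, but the order of the other libraries differed. Control 1 was above control 2 for acinar genes and below it for core genes. KO-labelled replicate 2 was the highest for acinar genes and replicate 3 for core genes. Over the whole lists, 19 of 20 tested acinar genes (95%) had an unadjusted p under 0.05 and were higher, against 14.9% of all genes tested. None of the 21 was at 0 counts in all libraries. Amy1, an amylase, was the 1 acinar gene called by edgeR (2.10 ± 0.36, adjusted p = 0.0169), with 0 called without control 2 or KO-labelled replicate 1 and 19 without control 3, where the list's median was 1.45 against 1.98 with it. The 11 macrophage genes summed to 161, 161 and 171 CPM in controls 1, 2 and 3. In the KO-labelled libraries they summed to 284, 360 and 282 CPM. The 10 stromal genes summed to 95.5, 185 and 331 CPM in the controls and 460, 402 and 364 CPM in the KO-labelled libraries. For both lists control 3 was the highest control, unlike for core and acinar genes. In edgeR 6 of 11 and 4 of 10 rose, where 4.14% of all genes tested did. Without control 3 the counts were 3 and 7, where 174 of 13997 genes tested rose. Without control 2 or KO-labelled replicate 1, 2 of the macrophage and 3 of the stromal genes were called. Their part in the ribosomal protein result was not tested.

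**Figure D2:**
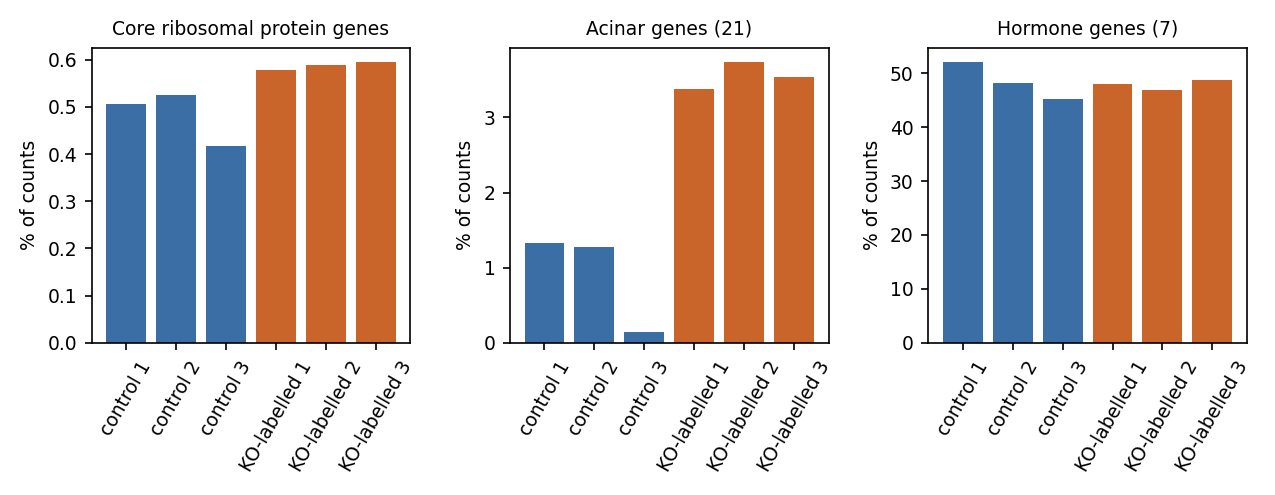
Bars give the percent of each library's counts (y axes starting at 0) on core ribosomal protein genes, 21 acinar genes and 7 hormone genes, for 3 controls and 3 KO-labelled (KO-labelled) libraries. Control 3 is lowest in all 3 panels, and the KO-labelled libraries exceed every control for ribosomal protein and acinar genes but not for hormone genes.

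Among small-subunit genes, all 30 tested had a positive log2 fold change, between 0.24 and 0.55 with a median of 0.35 (0.19 without control 3). The 2 core genes called by edgeR were both among them, and 28 were not called. DESeq2 called 6 of the 30 higher and 0 lower, where it called 990 of all 13736 genes higher. In this subunit every KO-labelled library was above every control in 22 (73.3%), against 16.9% of all genes tested. These genes vary together across libraries, so the 22 are not independent observations.

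The largest fold change of the core genes belonged to Rps26, which lines the mRNA exit channel and passed in DESeq2 but not in edgeR. Rps26 stood at 30.9, 29.8 and 17.8 CPM in the controls and 37.5, 37.5 and 39.8 CPM in the KO-labelled libraries (log2 fold change 0.55 ± 0.18, edgeR adjusted p = 0.0902; 0.0356 by DESeq2). The gap between control 3 and the other controls was wider there than the gap between those controls and the KO-labelled libraries. Among small-subunit genes, Rps12 followed with 0.52 ± 0.17 (edgeR adjusted p = 0.0873, and 0.0407 by DESeq2). Rpsa, a component of the 40S subunit also known as the laminin receptor, was at 131, 132 and 103 CPM in the controls and 153, 164 and 167 CPM in the KO-labelled libraries (0.40 ± 0.12, adjusted p = 0.0643; 0.0160 by DESeq2).

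Rps6, Rps19, Rps27a and Rps14 were called by neither edgeR nor DESeq2. Rps6, the protein that S6 kinases phosphorylate, had 86.1, 72.5 and 65.97 CPM in the controls and 82.4, 92.1 and 95.6 CPM in the KO-labelled libraries; the groups overlapped (0.27 ± 0.12, edgeR adjusted p = 0.180). Rps19, the gene most often mutated in Diamond-Blackfan anemia, had a log2 fold change of 0.35 ± 0.16 (adjusted p = 0.189). Rps27a, made as a fusion with ubiquitin, had 0.43 ± 0.15 (adjusted p = 0.102). Rps14, a protein of the subunit platform and the second most abundant core gene per kb of exon, had 0.35 ± 0.15 (adjusted p = 0.182).

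Large-subunit genes had values in the same direction, with 42 of 43 tested positive, a median of 0.29 (0.16 without control 3) and none called by edgeR. At an unadjusted p under 0.05, 21 (48.8%) were higher and 0 lower, against 14.9% higher over all genes tested. DESeq2 called 6 of the 43 higher and 0 lower, where it called 990 of all 13736 genes higher. The stalk proteins, which recruit elongation factors, were among the higher values. Rplp0, the stalk base, had 297, 241 and 223 CPM in the controls and 327, 318 and 456 CPM in the KO-labelled libraries (0.53 ± 0.17, edgeR adjusted p = 0.0803; 0.0104 by DESeq2). The groups did not overlap, and replicate 3 stood well above the other KO-labelled libraries. Its stalk partners Rplp1 (0.48 ± 0.19, adjusted p = 0.140) and Rplp2 (0.41 ± 0.14, adjusted p = 0.0997) were not called by either tool.

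Rpl5 and Rpl11, which carry the 5S ribosomal RNA and can bind the p53 regulator Mdm2, had different values. Rpl5 was at 43.9, 40.5 and 33.8 CPM in the controls and 47.7, 49.9 and 53.7 CPM in the KO-labelled libraries (log2 fold change 0.36 ± 0.11, edgeR adjusted p = 0.0869); 47.7% of its exon bases also belong to Fam69a in the table. Rpl11 was at 59.9, 60.8 and 42.0 CPM and 56.6, 63.0 and 70.04 CPM, with overlapping groups (0.22 ± 0.15, adjusted p = 0.373; 0.05 without control 3). The difference between both genes was not tested. Rpl10, which joins late in assembly and shapes the peptidyl-tRNA site, had 0.24 ± 0.16 (adjusted p = 0.355), Rpl22, an RNA-binding surface protein, 0.42 ± 0.16 (adjusted p = 0.130), and Rpl38, which is needed for the translation of some Hox mRNAs in embryos, 0.47 ± 0.15 (adjusted p = 0.0904; 0.0479 by DESeq2).

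Rpl13a, Rpl31, Rpl3 and Rpl21, at the low end of the positive values, sat close to 0 without control 3. Rpl13a, which also takes part in the silencing of inflammatory mRNAs, had 0.13 ± 0.11 (edgeR adjusted p = 0.469) and 0.027 without control 3. Rpl31 had 0.15 ± 0.14 (adjusted p = 0.530) and -0.018 without control 3, and 33.1% of its exon bases also belong to Tbc1d8. Rpl3, part of the peptidyl transferase centre, had 0.20 ± 0.14 (adjusted p = 0.423) and 0.018. Rpl21 had 0.20 ± 0.13 (adjusted p = 0.363) and 0.048.

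Rpl29 (chr9:106429539-106431567 in mm10), a large-subunit protein also known for binding heparin, was the only tested core gene with a negative log2 fold change. Its levels were 26.9, 23.4 and 11.1 CPM in controls 1, 2 and 3 and 14.9, 15.6 and 5.64 CPM in the KO-labelled libraries. The groups overlapped, because control 3 was below KO-labelled replicates 1 and 2, and replicate 3 was the lowest of all. The log2 fold change was -0.76 ± 0.38 (edgeR adjusted p = 0.233), and -1.07 without control 3 (adjusted p = 0.125). Knockout-labelled replicate 3, which held the highest value for 61 core genes, was the lowest for this one. Transcripts of 81 annotated pseudogenes share at least one stretch of 50 bases with Rpl29, which makes its count uncertain, and the number was also 81 for Rpl21. Of the 50-base windows of Rpl29, 33.4% occurred in no transcript of another gene, against a median of 42.6% over the tested core genes. That share was lower still for Rpl5 (6.16%), Rpl10 (7.87%) and Rps12 (9.89%), so this limit is not particular to Rpl29.

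**Figure D3:**
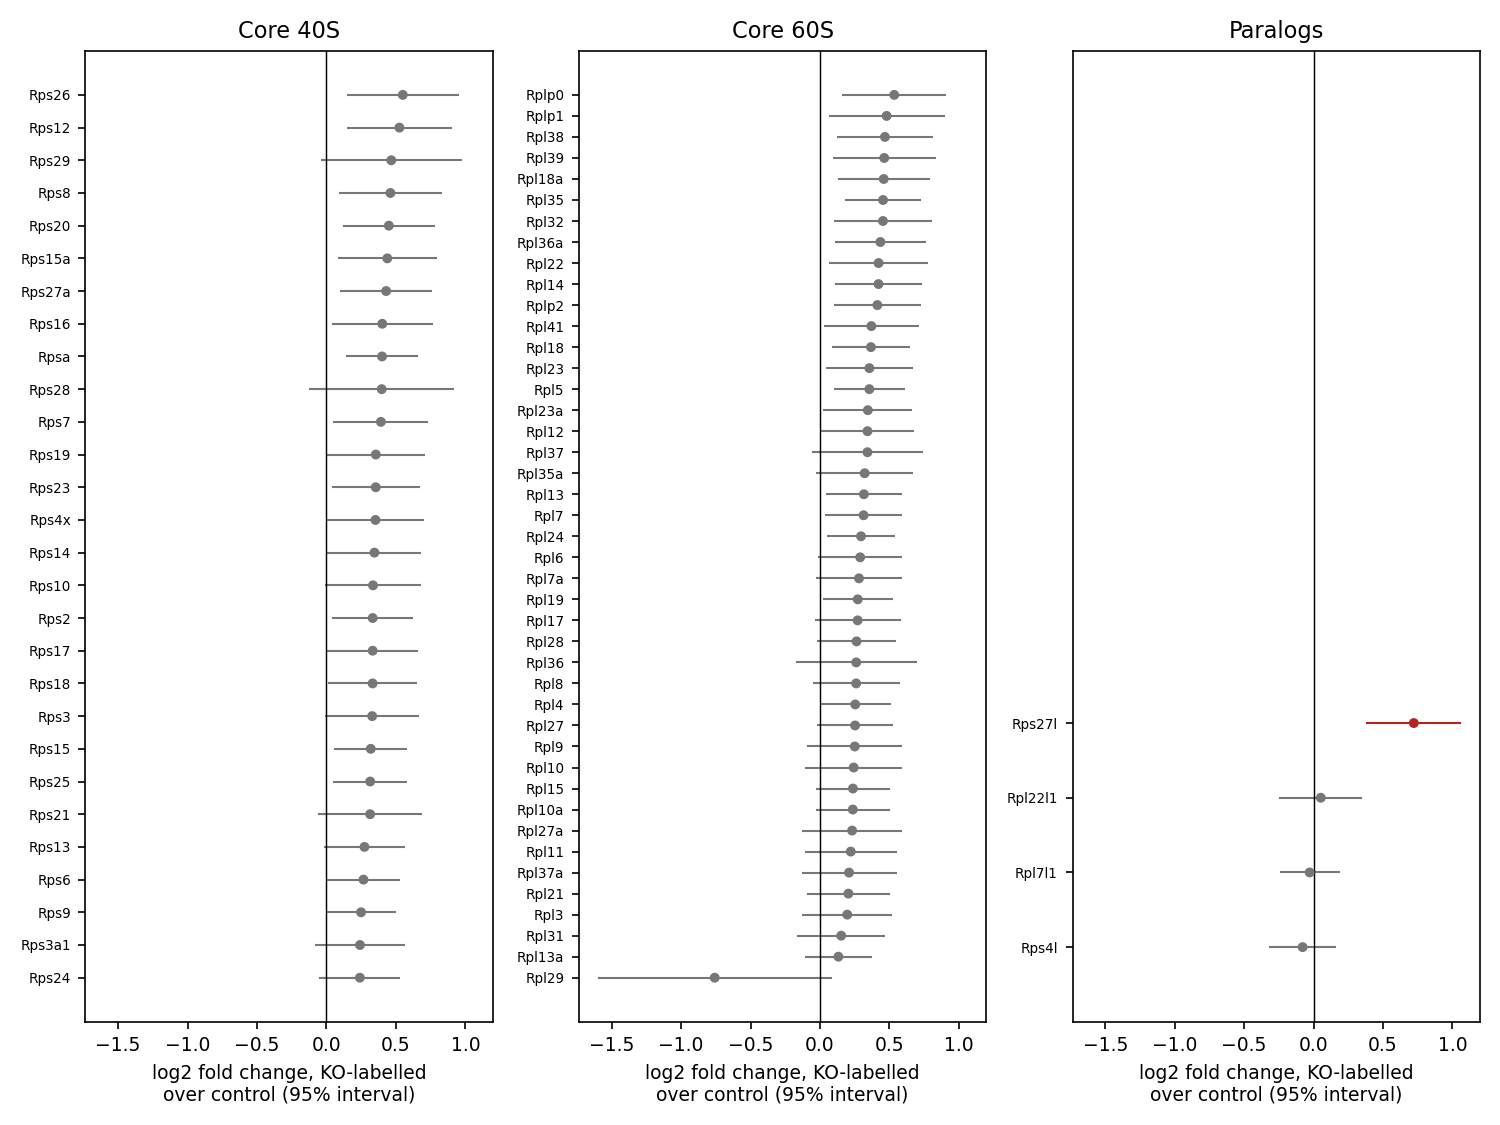
Points are log2 fold changes (KO-labelled over control, x axis) of the tested members other than the 2 called core genes, with 95% intervals, and red marks an adjusted p under 0.05. The 28 small-subunit genes and 42 of 43 large-subunit genes lie right of 0, Rpl29 lies left of it, and Rps27l has the largest value, 0.72.

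**Figure D4:**
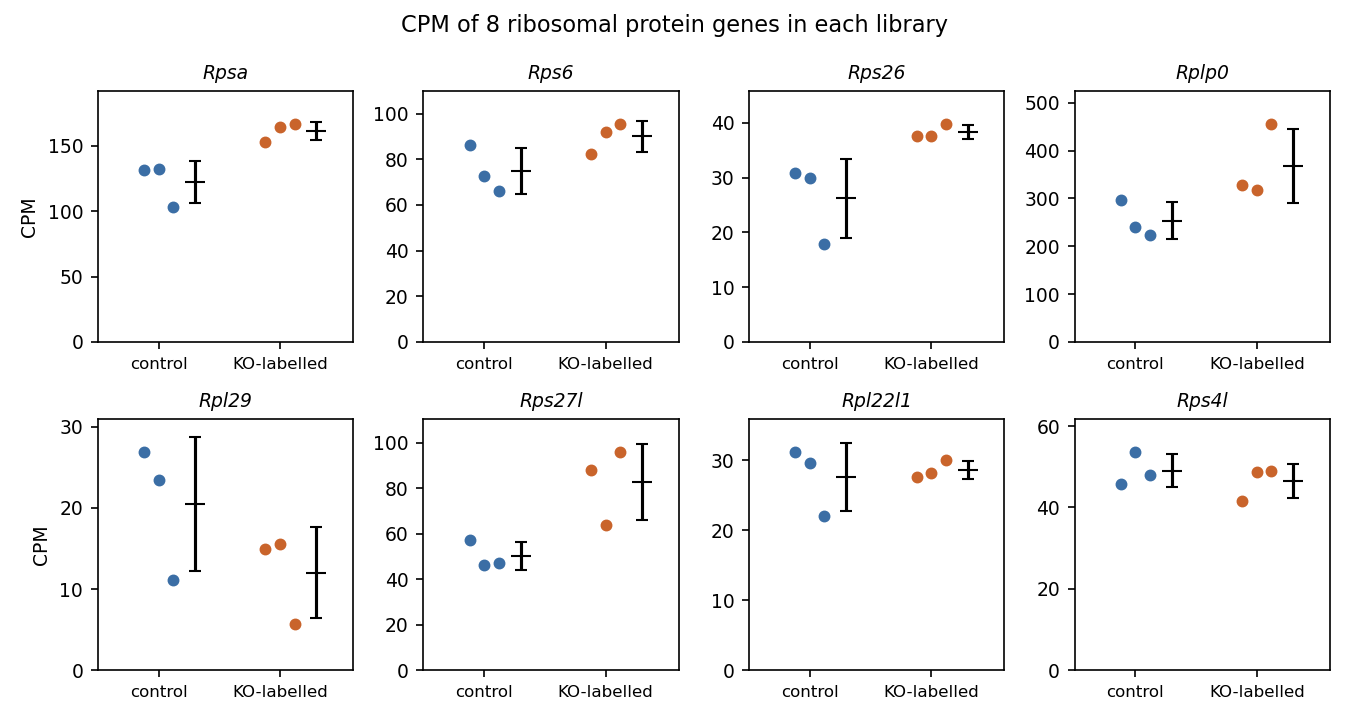
Points are CPM in each library for 8 members (y axes start at 0; points run from replicate 1 to 3 within a group), and the black mark and bar give mean ± SD over 3 libraries. Rpsa, Rps26, Rplp0 and Rps27l do not overlap between groups, whereas Rps6, Rpl29, Rpl22l1 and Rps4l do.

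Of the 7 paralogs, 4 passed the filter and 1 was called. Rps27l (chr9:66946118-66949509), a close relative of Rps27 that p53 induces, rose. It had 57.2, 46.2 and 47.3 CPM in the controls and 88.3, 64.0 and 96.04 CPM in the KO-labelled libraries, without overlap. The log2 fold change of 0.72 ± 0.15 (edgeR adjusted p = 0.0301; 0.000348 by DESeq2) was larger than that of any tested core gene, and whether it exceeds them was not tested. Unlike the core genes, Rps27l was not lowest in control 3, and without that library the value was 0.67 (adjusted p = 0.0964). Calls were also lost without control 2 (0.65, adjusted p = 0.117) and without KO-labelled replicates 1 (0.67, adjusted p = 0.0952) or 3 (0.60, adjusted p = 0.0714).

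The other 3 tested paralogs had log2 fold changes near 0 and overlapping groups. Rpl22l1, a relative of Rpl22, had 31.1, 29.6 and 22.1 CPM in the controls and 27.6, 28.2 and 30.02 CPM in the KO-labelled libraries (0.05 ± 0.13, edgeR adjusted p = 0.844, interval -0.25 to 0.35). Rpl7l1, a nucleolar relative of Rpl7, had -0.03 ± 0.10 (adjusted p = 0.887) and Rps4l -0.08 ± 0.11 (adjusted p = 0.685). Rps4l is a single-exon copy of Rps4x, and counts of the pair could be split between them. Both Rpl22l1 and Rpl7l1 changed sign without control 3, to -0.10 and 0.024.

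Ratios within a library do not depend on the scaling of libraries. Counts of Rpl22l1 per count of Rpl22 came to 1.67, 1.71 and 1.87 in controls, against 1.33, 1.32 and 1.38 in the KO-labelled libraries, a difference of -0.38 on the log2 scale. All KO-labelled ratios were below all control ratios, and the exact two-sided permutation p was 0.1, the smallest that 3 against 3 libraries allow (0.15 after Benjamini-Hochberg adjustment over 3 pairs). Without control 3 the difference was -0.33. The ratio of Rps4l to Rps4x differed by -0.46 (exact permutation p = 0.1, -0.26 without control 3) and that of Rpl7l1 to Rpl7 by -0.35 (exact permutation p = 0.2, -0.15 without control 3).

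The tissue-restricted paralogs were at or near 0. Rpl10l and Rpl39l, known from testis, had 0 counts in every library. Rpl3l, known from heart and skeletal muscle, had 0 counts in each control and 1 count in each KO-labelled library, which is too few for a fold. Against these totals, a count of 0 allows at most 3 counts in a library, a bound for counting error only.

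Levels of core genes were high but uneven. Per kb of exon, the 73 tested genes had a median of 81.8 CPM, above 96.4% of all genes tested, with an interquartile range from 51.9 to 123 CPM per kb. Rpl41, which encodes a very short peptide, had the highest level at 322 CPM per kb, followed by Rps14 (289) and Rpl10 (249). The lowest tested was Rps15a, at 5.43 CPM per kb over a listed exon length of 5134 bp. Exon length sums all listed exons of a gene, including ones rarely used, so such values can be too low.

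Another 4 core genes were almost uncounted although every growing cell needs them. Rpl26 had 0 counts in all 6 libraries, and Rpl30, Rps27 and Rpl34 had means of 5.33, 7.17 and 8.67 counts. In the table each shares much of its exon sequence positions with another row: 95.8% of the exon bases of Rpl26 with Gm15772, 76.0% of Rpl30 with Gm12191, 60% of Rps27 with Rps27rt and 59.9% of Rpl34 with Rpl34-ps1. These partner rows had 0 counts too. The largest such share among tested core genes was the 47.7% of Rpl5. No level or fold is given for these 4 genes, and how reads on shared positions were treated is not given in the sources used here.

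Near-identical copies elsewhere in the genome were common for these genes. A median of 42.6% of the 50-base windows of a tested core transcript occurred in no transcript of another gene in the GENCODE annotation of mm10, and the value was under 50% for 43 of 73 genes. Over these 73 genes the share of unique windows showed little relation to level per kb (Spearman's rho = -0.04), as a description across genes that share libraries. In the 8 genes with at least 80% unique windows, the median log2 fold change was 0.43, against 0.32 in the 43 genes under 50%. The transcripts used could differ from the counted exons. Among those 8, the transcript of Rps20 had 3706 bases against 502 bp of exons, and that of Rpl39 had 612 against 394. Longer genes tended to have smaller fold changes (rho = -0.32 between exon length and log2 fold change).

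Ribosomal protein genes whose symbols fall outside the rule had positive values too. Fau, made as a fusion of a ubiquitin-like protein with a small-subunit protein, was at 42.9, 38.9 and 27.6 CPM in the controls and 46.2, 43.04 and 45.3 CPM in the KO-labelled libraries, without overlap (log2 fold change 0.30 ± 0.15, edgeR adjusted p = 0.231). Rpl36al had 0.31 ± 0.12 (adjusted p = 0.130).

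Other mRNAs that begin with a TOP tract had a smaller median, with no test of that difference. Of 22 tested, 18 were positive with a median log2 fold change of 0.18 (0.06 without control 3). Over all genes tested, edgeR called 4.14% higher and DESeq2 called 990 of 13736 higher. In this list edgeR called 1 higher (4.55%, near that background) and 0 lower, and DESeq2 called 2 higher and 0 lower. Both called Vim, vimentin, from 11.7, 10.4 and 9.29 CPM to 27.9, 30.3 and 21.2 CPM (1.34 ± 0.15, edgeR adjusted p = 0.00543), a filament protein of stromal and endothelial cells, whose markers were higher in the same libraries. DESeq2 also called Gnb2l1, a scaffold protein of the small subunit (0.40 in each tool, adjusted p = 0.0349 by DESeq2 and 0.0767 by edgeR). Host genes of small nucleolar RNAs, which are spliced from such transcripts, were all 7 positive with a median of 0.34 (0.17 without control 3), and 0 were called by edgeR or DESeq2 (1 higher at an unadjusted p under 0.05 in each).

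Factors that build ribosomes had medians nearer to 0. Of 54 assembly factors, 33 were positive and 21 negative, with a median of 0.07, and edgeR and DESeq2 called 0. At an unadjusted p under 0.05 edgeR had 8 (14.8%) higher and 1 lower. Over all genes tested, 14.9% were higher and 11.6% lower at that level, so the higher share was near the background. For the 18 genes of RNA polymerase I, which transcribes ribosomal RNA, the median was -0.10, with 7 positive and 11 negative. None of them was called by edgeR or DESeq2, with 0 higher and 2 lower at the unadjusted level. The 74 mitochondrial ribosomal protein genes had a median of 0.15 (0.08 without control 3), with 57 positive. Of these 74, edgeR called 0 and DESeq2 1, Mrps24 (0.46, adjusted p = 0.0255 by DESeq2). At the unadjusted level edgeR had 11 (14.9%) higher and 2 lower, the higher share again near the 14.9% of all genes tested.

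In a list of 19 genes, made of regulators of TOP mRNA translation together with Myc, edgeR called 2 higher (10.5%), 0 lower and 17 neither way. Over all genes tested, edgeR called 4.14% higher. DESeq2 called 2 of the 19 higher and 1 lower. Leaving out each library gave 0 to 2 higher and 0 to 1 lower in edgeR, with 0 higher without control 3 or KO-labelled replicate 1. Tsc1, an inhibitor of mTOR signalling, was the gene that DESeq2 called lower (-0.47, adjusted p = 0.0431, against 0.0654 by edgeR). Eif4ebp1, the mTOR target that restrains cap-dependent translation, rose from 20.6, 16.5 and 12.2 CPM to 34.1, 23.5 and 33.3 CPM (log2 fold change 0.88 ± 0.20, edgeR adjusted p = 0.0341; 0.0931 without control 3). Myc, a transcription factor that drives ribosome production, rose from 11.4, 16.04 and 10.4 CPM to 27.5, 24.8 and 19.2 CPM (0.92 ± 0.19, adjusted p = 0.0273; 0.0834 without control 3). Neither overlapped between groups. The list's median was 0.0048, with 10 genes positive and 9 negative.

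**Figure D5:**
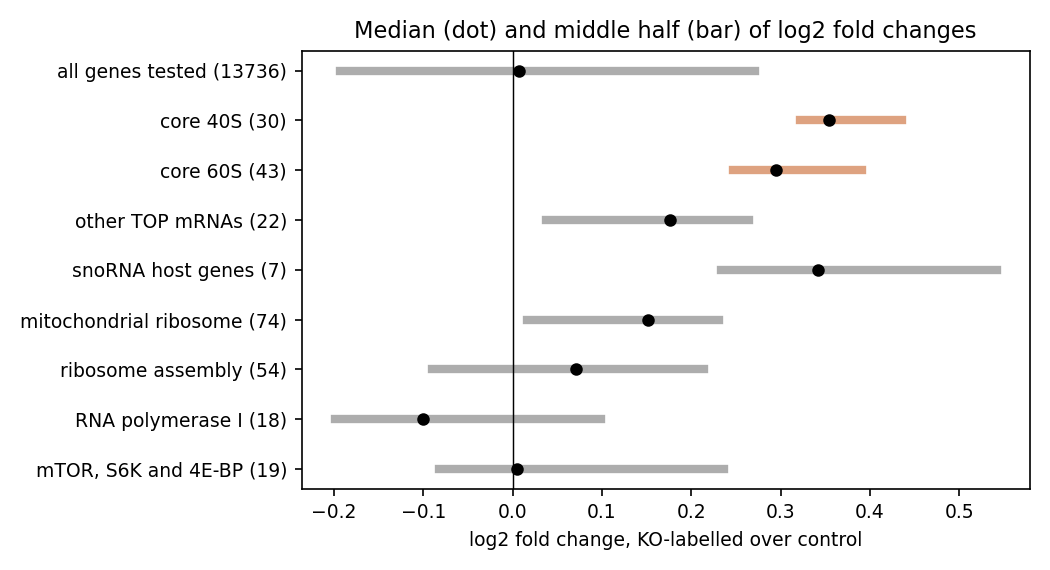
Dots are median log2 fold changes (KO-labelled over control, x axis) and bars the interquartile range of each list, with the number of genes tested in brackets. The core 40S and 60S medians are 0.35 and 0.29, the snoRNA host genes reach 0.34, and ribosome assembly (0.07), RNA polymerase I (-0.10) and all genes tested (0.01) lie nearer to 0.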

How the data were processed

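Counts per gene were deposited by the authors as whole numbers, not normalized, with exon coordinates and summed exon length, per the file headers. Tools listed in the submitters' processing notes were STAR (2.4.2a), Subread (1.5.0) with featureCounts, and edgeR, on mm10. Strand and multi-mapping settings and the annotation were not given in the sources used here. Per the labels' protocols, cDNA was made from low-input RNA with poly-dT priming (SMART-Seq v4) and sheared, a scheme that does not mark strand. Columns were matched to samples by name. Computations used R 4.3.3.

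Counts were tested across all genes with edgeR 4.0.16 (TMM factors, default expression filter, quasi-likelihood test, group as the only term); adjusted p-values are Benjamini-Hochberg values over 13736 genes, called under 0.05. Each SE is the absolute log2 fold change over the square root of F. CPM uses TMM-scaled library sizes. Paralog ratios required at least 10 counts of both genes in each library. GenomicRanges 1.54.1 gave the unstranded overlap of exons between rows. Pairs of replicates differed by more than counting noise (chi-square per degree of freedom at least 11.1). The procedure was tested on simulated data.

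Members and gene lists were chosen with earlier results of these data known. Named genes were all paralogs, called core genes, the 5 highest and 5 lowest log2 fold changes, the 3 highest and 3 lowest levels per kb, a fixed set, and called list members; some genes that this rule names are not reported here, and some other core genes were named after their values were seen (Rps15a, Rpl34), as were Gnb2l1, Tsc1 and Mrps24. Marker lists of other cell types also covered duct, endothelial, lymphocyte, β, alpha, and delta and PP cells. Alternatives were other scalings and filters, DESeq2 1.42.0, limma-voom (limma 3.58.1), a replicate block and leaving out each library.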

Additional observations from a re-analysis of the deposited data

How the results depend on the processing

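The core median log2 fold change stayed positive under every scaling, filter and test tried, from 0.18 without control 3 to 0.45 without control 1. It was 0.43 in the 8 genes with at least 80% unique windows, counted on transcripts that could differ from the counted exons. That setting was chosen after seeing the data. Calls were less stable. Core genes called were 2, against 1 with RLE factors, 12 with DESeq2 and 0 to 8 when each library was left out. Paralog calls were 0 to 1 and companion list calls (4) 1 to 4 when each library was left out; the latter came to 7 in DESeq2 and 7 when low counts were kept. Over all genes, 929 were called, 1413 with no filter, 1702 with DESeq2 and 64 to 968 with each library left out (99 without control 2, 216 without control 3, 64 without KO-labelled replicate 1 and 344 without KO-labelled replicate 3). The difference in core share of counts, 0.105 percentage points, was 0.184 outside hormone genes and 0.248 outside hormone and acinar genes, where the denominator is smaller. Without control 3, 3 uncalled genes changed sign. With each library left out, Rpl22l1 ran from -0.10 (without control 3) to 0.14, Rpl7l1 from -0.080 to 0.024 (without control 3) and Rpl31 from -0.018 (without control 3) to 0.24. Replicate numbers did not pair the samples: correlations of same-numbered deviations were -0.05, 0.01 and 0.04. With a replicate block, 826 genes and 2 core genes were called, 1 higher and 1 lower, Rpl29. What depth limits was not tested; 4 core genes and 3 paralogs had too few counts to test. Of 47 named and tested genes, 22 kept direction and status in all alternatives, where an uncalled gene that stayed uncalled also counts. Among the named genes, only Vim, Dcn, Mgp and Cd68 were called in every fit that left out a library. For genes that did not keep both, the cause was not tested.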

Other observations

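Among markers of other cell types listed beside these genes, endothelial genes rose for 4 of 10 tested, including Pecam1 (log2 fold change 0.74 ± 0.11, edgeR adjusted p = 0.0108), an adhesion molecule of vessel walls, and Vwf (1.70 ± 0.26, adjusted p = 0.0131). Of 6 duct genes, Spp1 rose (1.53 ± 0.35, adjusted p = 0.0350), and of 9 lymphocyte genes, Cd4 (2.96 ± 0.72, adjusted p = 0.0416), whose list summed to 90.8 CPM in KO-labelled replicate 2 and to 12.7 to 25.5 CPM in the other libraries. Of 10 β cell genes 4 fell, among them Ucn3 (-0.86 ± 0.15, adjusted p = 0.0197) and Nkx6-1 (-0.65 ± 0.12, adjusted p = 0.0215). None of 5 alpha cell genes was called by edgeR or DESeq2 (0 by edgeR and 1 by DESeq2 at an unadjusted p under 0.05), and 2 of 5 delta and PP cell genes rose, Hhex (0.50 ± 0.11, adjusted p = 0.0351) and Pyy (1.03 ± 0.25, adjusted p = 0.0417). Over all genes tested, edgeR called 4.14% higher and 2.63% lower, and DESeq2 called 990 of 13736 higher and 712 lower. The marker calls depended on single libraries. In edgeR, endothelial calls ran from 0 (without KO-labelled replicate 1) to 3 when each library was left out, with 2 without control 2 or 3. The β cell calls ran from 0 (without control 2 or KO-labelled replicate 1) to 5, with 1 without control 3. Duct calls ran from 0 (without control 3 or KO-labelled replicate 1 or 2) to 2 (without control 1). Lymphocyte calls were 0 in each of these fits except 1 without control 1. Delta and PP cell calls were 2 without control 2, 1 without control 1 and 0 in the other 4. At an unadjusted p under 0.05, the fits with 0 calls had 6 endothelial genes higher and 5 to 6 β cell genes lower. They also had 1 to 4 duct, 2 to 8 lymphocyte and 4 delta and PP cell genes higher. Without KO-labelled replicate 2, 1 lymphocyte gene was lower at that level. With all libraries, 14.9% of all genes tested were higher and 11.6% lower at that level. The shares in the fits with a library left out are not given here, so these counts do not restore the lost calls. DESeq2 on all libraries called 4 endothelial, 1 duct, 2 lymphocyte and 4 delta and PP cell genes higher and 6 β cell genes lower.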
